A study of Hakea prostrata with 26 samples.

Results

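The youngest field leaves of Hakea prostrata, wild leaf stage 1, were set against those labelled stage M, with 3 RNA-seq libraries a side out of 26 in the series. Members were chosen by the labels alone, as all 6 libraries of these stages, and expression was read per gene, as the estimated counts of a gene's assembled isoforms added together. After rounding, 23261 of the 25047 genes in the data had counts in these 6 libraries, 22861 of them at stage 1 and 19624 at stage M. Hakea prostrata is a shrub of the Proteaceae from south-western Australia. Both groups were untreated leaves of naturally growing plants at a single field site, and the labels name no genotype, age or sex. The other wild leaf libraries were stages 2, 3 and 4, with 3 replicates each. Further libraries came from plants in hydroponics, 1 for each condition, and comprised cluster roots of 5 ages from day 0 to day 12, and both white roots and mature leaves grown with phosphate (Pi) at 1, 10 or 50 uM. The labels say that every stage was sampled from each of the harvested plants and that the 3 RNA samples of best quality were kept. They do not say what M stands for. Replicates were taken to be leaves of separate plants.

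Hakea prostrata lives on soils very poor in phosphorus and is known for using that element sparingly. It delays leaf greening: a young leaf is built and expands first, and working chloroplasts and chlorophyll follow later. Ribosomes hold a large share of a plant's phosphorus in their RNA. Those of the cytosol make most proteins of a growing cell, and those of the plastid make the proteins encoded in the plastid genome, many of them parts of the photosynthetic machinery. The title of the study asks how expression shifts between these kinds of ribosome as the leaf greens. The file pairs no ID with a gene name, so neither ribosomal genes nor markers of leaf cell types could be picked out, and genes are described here by their level, course and tissue.

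Total estimated counts were 4848372 to 6178864 a library at stage 1 and 2644973 to 4054878 at stage M. Replicates correlated at r = 0.949 to 0.962 across genes at stage 1 and at 0.936 to 0.945 at stage M, and a stage 1 library with a stage M library at 0.608 to 0.638 (log2 CPM, where CPM are counts scaled to a common library size). The median SD of log2 CPM between replicates was 0.22 at stage 1 and 0.37 at stage M. The label of stage M was checked against the hydroponic libraries, which lie outside the contrast. Across the 16668 tested genes, stage M correlated with hydroponic mature leaf at a mean r of 0.790 to 0.856 and with white root at 0.494 to 0.503. Stage 1 correlated with mature leaf at only 0.648 to 0.674 and with white root at 0.687 to 0.707. Its highest value in hydroponics was with the day 0 cluster root, at 0.742, where stage M had 0.476. These correlations describe genes within libraries of different depth and carry no test.

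The leaf transcriptome of stage M was dominated by a handful of genes. The 3 most abundant there, picked for that level and all without further isoforms, went from 1.01% of all counts at stage 1 to 33.3%. The most abundant held 0.443%, 0.289% and 0.450% of the counts in stage 1 replicates 1, 2 and 3, and 15.9%, 16.4% and 10.1% in those of stage M. The gene of the next rank held 0.447%, 0.337% and 0.489% at stage 1 and 14.04%, 14.3% and 10.4% at stage M. The gene of rank 3 held 0.216%, 0.149% and 0.215%, and then 7.03%, 7.11% and 4.60%. No value of any of the 3 genes overlapped between the stages, and stage M replicate 3 was the lowest of its group for each of them.

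Summed, these genes held 1.01 ± 0.207% in stage 1 libraries and 33.3 ± 7.16% in those of stage M (SD, n = 3), and the means of the stages between were 1.97%, 4.90% and 17.9%. An exact two-sided permutation test of the stage 1 and stage M shares gave p = 0.1, the smallest that 3 libraries against 3 allow. It shuffled all 6 libraries freely, without the pairing by replicate number described below, under which the smallest p would be larger. The genes were picked for their stage M level. They moved in step: the gene of rank 2 stood at 0.853 to 1.17 times the gene of rank 1 in all 15 wild leaf libraries, and that of rank 3 at 0.433 to 0.522 times. In the hydroponic mature leaves the same ratios were 0.830 to 0.912 and 0.0890 to 0.0991, so the gene of rank 3 was far lower there against the other 2. The leading gene took 0.891%, 0.815% and 0.344% of the counts in mature leaves at 1, 10 and 50 uM Pi, well under its share in any stage M library. In white roots it stayed at 0.00384% to 0.00545%.

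**Figure D1:**
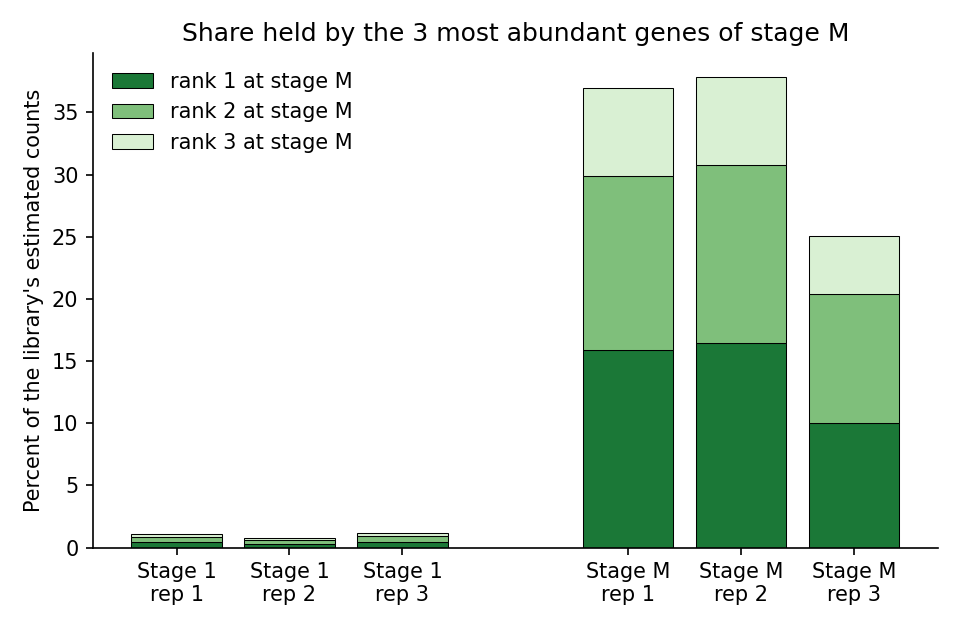
Stacked bars give the percent of each library's estimated counts held by the 3 genes most abundant at stage M, for replicates 1, 2 and 3 of stages 1 and M. The stage 1 bars sum to 0.774 to 1.15% and the stage M bars to 25.03 to 37.9%, with stage M replicate 3 the lowest of its group.

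With so much of the library in so few genes, the counts of a stage M leaf were spread over a narrow set. In the stage 1 libraries the 1375, 1352 and 1292 most abundant genes made up 50% of the counts, and in the stage M libraries the 34, 30 and 127 most abundant. The 100 most abundant genes of each library held 15.1 to 16.05% of the counts at stage 1 and 48.0 to 58.8% at stage M. The sets of abundant genes also differed: 9 genes were among the 20 most abundant of both stages, 26 among the 100 most abundant and 396 among the 1000 most abundant.

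Between stage 1 and stage M, most of the tested genes changed, and more of them fell than rose. Of 16668 tested genes 10265 (61.6%) passed at an adjusted p under 0.05 (quasi-likelihood test of edgeR, adjusted by Benjamini-Hochberg), with 4252 (25.5%) higher at stage M and 6013 (36.1%) lower. The median log2 fold change of those that rose was 1.67 and of those that fell -2.25, or -2.14 with genes at 0 set to a bound of 3 counts over the stage. At least 4-fold rises numbered 1745 (10.5%) and at least 4-fold falls 3348 (20.1%), and changes of at least 16-fold 525 and 1525. The falls were thus both more frequent and larger. The CPM ranges of the stages did not overlap for 11482 genes (68.9%), among them 4120 of those that rose and 5901 of those that fell.

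How many genes rose depended on how the libraries were scaled. TMM, the scaling behind these counts, sets the bulk of genes level between libraries and gave factors of 1.46 to 1.53 at stage 1 and 0.533 to 0.711 at stage M. Scaling by the total count alone takes each gene as a share of the library, and shifted the log2 fold changes by a median of -1.32. On that scale 1734 genes (10.4%) rose and 11770 (70.6%) fell, so 12.8% of the calls were rises where TMM gave 41.4%. With the 3 most abundant genes left out of the total, the shift was -0.75, and 2550 rose and 9585 fell. All 6013 falls and 1734 of the 4252 rises were called in the same direction on each of these 3 scales. Both other scales shifted the fold changes downward, so the match of the falls is largely built in. A further 774 genes that rose under TMM fell as a share of the total, and 1744 passed no test on that scale. The 1734 genes that rose on each scale had a median log2 fold change of 3.06 under TMM and 1.72 by total count.

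**Figure D2:**
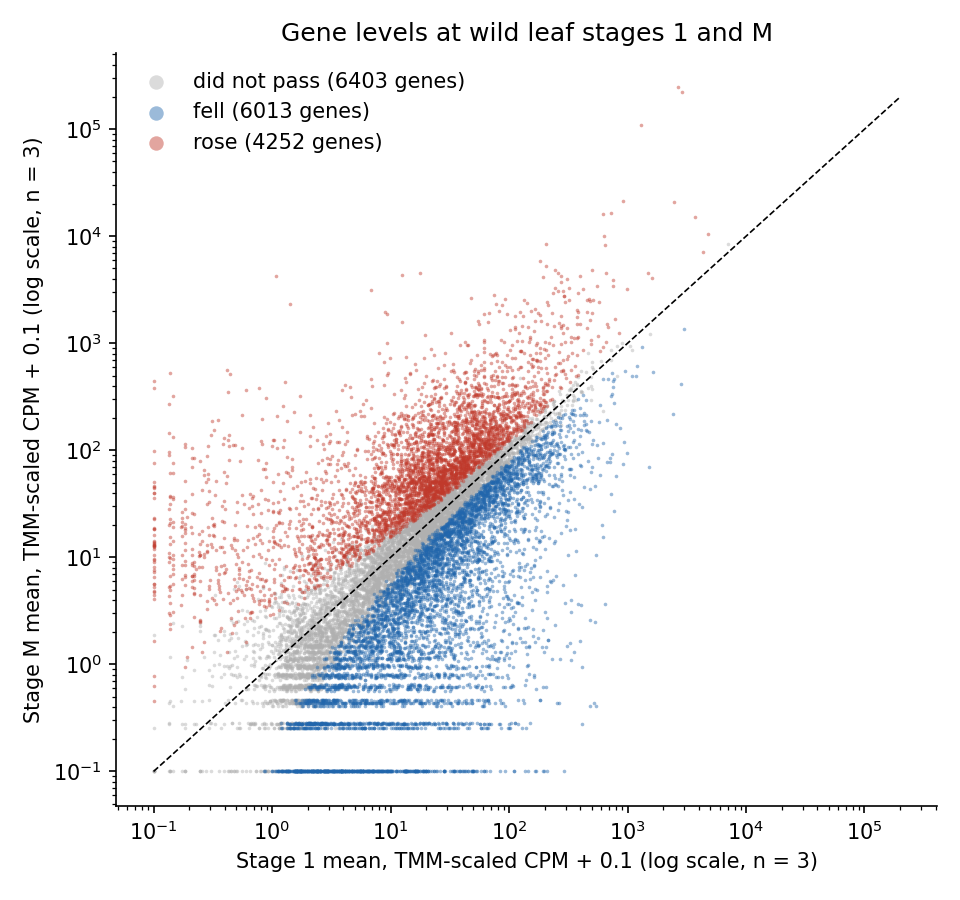
Each point is a tested gene, at its mean TMM-scaled CPM plus 0.1 at stage 1 (horizontal) and stage M (vertical), both on log scales with n = 3, coloured by whether it rose, fell or did not pass, and the dashed line marks equal levels. The 6013 genes that fell lie below the line, many along the lower edge where stage M had no counts, and a few that rose stand above all others at the upper end.

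Few genes could be shown to be steady. On the TMM scale, the 95% interval of the fold change lay within 1.5-fold either way for 877 genes (5.26%). It lay within 2-fold for 3032 (18.2%). The typical interval reached 0.76 on the log2 scale to each side of the estimate. The 6403 genes that passed no test (38.4%) are therefore mostly undecided at this depth and on this scale. By total count, 4983 of them were called as falls. In all 3 pairs of same-numbered libraries, 4192 of the genes that rose and 5986 of those that fell kept that direction. The genes were called from these same libraries, so that match is largely built in.

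The share of genes that rose grew with abundance, and the share that fell was largest in scarcer genes. Genes were put in 5 equal classes by their mean CPM over both stages, from scarcest to most abundant, and the share that rose was 3.84%, 13.1%, 20.6%, 37.6% and 52.4%. The share that fell was 35.0%, 44.4%, 41.5%, 32.6% and 26.8%. In the scarcest class the median standard error was 0.88, against 0.19 in the most abundant, so fewer changes could be called there. By total count, 26.6% of the most abundant class rose and 58.2% fell, so there the majority turned with the scale, while in the scarcest class 1.77% rose and 70.7% fell.

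The genes that led stage 1 did not all decline. Among the 20 most abundant at stage 1, 9 rose, 8 fell and 3 passed no test, while by total count 5 rose and 11 fell. The leading stage 1 gene held 0.919%, 1.26% and 0.950% of the counts at stage 1 and 0.323%, 0.200% and 1.11% at stage M, where replicate 3 alone reached the stage 1 values. It did not pass (log2 fold change 0.26, with an SE of 0.39 and an adjusted p of 0.570 in edgeR), and without that library its value was -0.53 (edgeR, adjusted p = 0.116). The gene of rank 2 held 0.672%, 0.698% and 0.738% and then 0.343%, 0.366% and 1.32%, again with replicate 3 apart. The call of that gene (log2 fold change 1.16; edgeR, adjusted p = 0.0440) was lost without stage M replicate 3 (0.47; adjusted p = 0.355), without any stage 1 library (adjusted p = 0.0815 to 0.101) and by total count (-0.06; adjusted p = 0.921). Some fell far: the gene of rank 10 held 0.305%, 0.415% and 0.365% at stage 1 and 0.00335%, 0.0119% and 0.0269% at stage M (log2 fold change -3.47, with an SE of 0.44 and an adjusted p of 9.11e-06 in edgeR, or -4.12 without stage M replicate 3). Its share was higher at stage 2, at a mean of 0.571%, than at stage 1, and then dropped to 0.301% and 0.0914% at stages 3 and 4.

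Of the 100 most abundant genes of stage M, 99 rose and 0 fell under TMM, and 89 rose by total count. These were picked for their stage M level, so a rise is partly built in. They held 8.69 ± 0.471% of all stage 1 counts and 55.0 ± 6.13% of those of stage M (SD, n = 3). The gene of rank 4 went from 0.136 ± 0.0142% to 1.24 ± 0.0524%, and that of rank 5 from 0.364 ± 0.0106% to 1.23 ± 0.0437%. The latter had passed its highest mean at stage 4, with 2.12%, and held 3.81%, 4.34% and 3.92% of the counts in hydroponic mature leaves, above any wild leaf stage mean.

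The largest fold changes under the limits given here were in genes silent at one end of leaf growth and well expressed at the other. Ranking by fold change favours genes at 0 in a stage. The 2 largest rises and the 2 largest falls among the 4215 genes with an adjusted p under 0.05, a mean of at least 32 CPM and ranges that did not overlap are named here by ID. TRINITY_DN1884_c0_g1 had 0 counts in all 3 stage 1 libraries and 518, 486 and 332 CPM in stage M replicates 1, 2 and 3. It was at least 3767-fold higher at stage M, against 3 counts over the stage 1 libraries (edgeR, adjusted p = 2.61e-07), a bound that became 2393-fold or 2434-fold when stage 1 replicate 2 or 3 was left out. All 3 of its isoforms followed that pattern, with 0 counts at stage 1 and 135 to 493 at stage M.

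TRINITY_DN1884_c0_g2 likewise had 0 counts at stage 1 and 406, 418 and 325 CPM at stage M, at least 3244-fold higher (edgeR, adjusted p = 1.64e-06), or 2061-fold or 2097-fold with the same libraries left out. It shares its component with TRINITY_DN1884_c0_g1, which in Trinity's naming marks genes assembled from overlapping sequence, so reads may be divided between the 2 and they are not separate evidence. Both were late genes. TRINITY_DN1884_c0_g1 had 0 counts at stage 2, then 4.09 ± 2.20, 107 ± 55.2 and 445 ± 99.4 CPM at the later stages (SD, n = 3), and TRINITY_DN1884_c0_g2 at 0.0590 ± 0.0554, 1.84 ± 2.59, 78.5 ± 61.4 and 383 ± 50.5.

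In hydroponics, scaled among those libraries alone, TRINITY_DN1884_c0_g1 had 727, 585 and 218 CPM in mature leaves at 1, 10 and 50 uM Pi and 3.31 to 23.5 CPM in the 8 root libraries. TRINITY_DN1884_c0_g2 had 315, 221 and 52.1 CPM in the same leaves and 16.7 to 106 CPM in roots. In both genes the leaf level was lower at each higher Pi supply. Each supply was a single library, and that order was not tested.

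TRINITY_DN4482_c0_g1 had 227, 214 and 426 CPM in stage 1 replicates 1, 2 and 3 and 0 counts in all stage M libraries. It was at least 564-fold lower at stage M (edgeR, adjusted p = 7.09e-07), and at least 356-fold when stage M replicate 1 was left out. Its level was 59.4 ± 30.5 CPM at stage 2, 4.62 ± 1.43 at stage 3 and 0.155 ± 0.269 at stage 4, so most of the decline lay before stage 4. TRINITY_DN5118_c0_g2 had 202, 197 and 230 CPM at stage 1 and 0 counts at stage M, at least 409-fold lower (edgeR, adjusted p = 3.01e-08), and at least 258-fold when that library was left out. It stood at 69.4 ± 31.2, 9.56 ± 1.03 and 0.154 ± 0.267 CPM at stages 2, 3 and 4. Neither stage 1 range came near a stage M value.

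Both of the genes that fell were also present in roots and lower in the oldest cluster roots. TRINITY_DN4482_c0_g1 had 192, 139, 164, 115 and 26.8 CPM in cluster roots on days 0, 1, 4, 7 and 12, and 5.06 to 7.22 CPM in mature leaves. TRINITY_DN5118_c0_g2 had 111, 66.2, 50.1, 14.5 and 0.809 CPM in the same cluster roots, lower at each later day, and 0.471 to 1.02 CPM in mature leaves. Cluster roots are dense tufts of short rootlets that form, release carboxylates and then age within weeks. Each of their days was a single library.

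**Figure D3:**
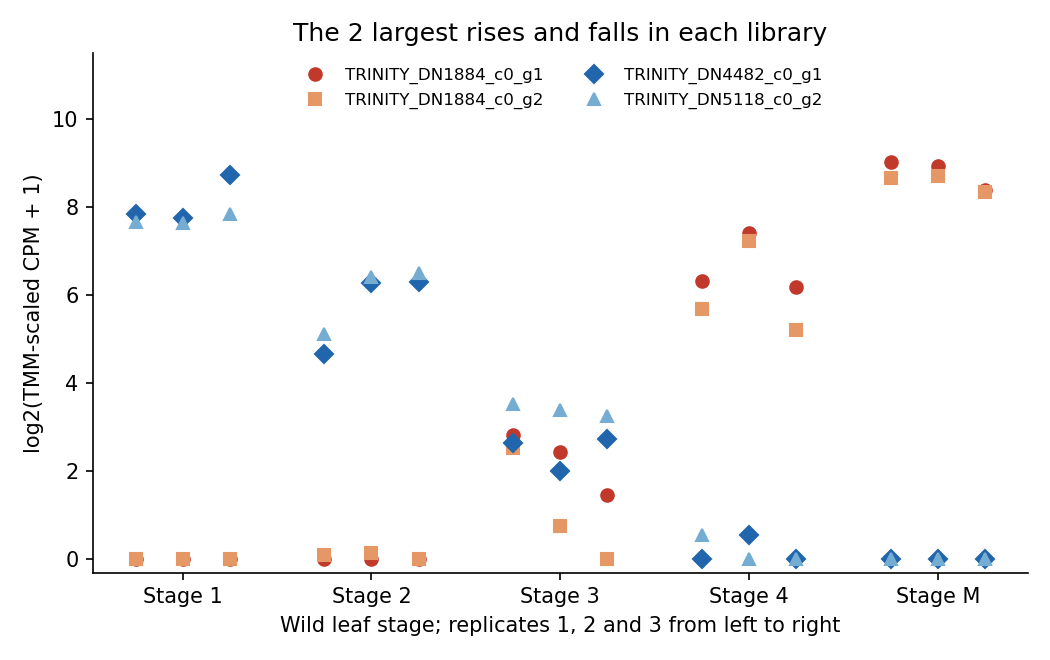
Points give log2 of TMM-scaled CPM plus 1 for the 4 named genes in each of the 15 wild leaf libraries, with replicates 1, 2 and 3 from left to right within a stage. The 2 genes that rose stay at or near 0 through stage 2 and reach 325 to 518 CPM at stage M, and the 2 that fell start at 197 to 426 CPM and are at 0 in every stage M library.

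More genes were at 0 throughout stage M than throughout stage 1. In the summed and rounded counts, where a sum under 0.5 is 0, 3637 genes had counts at stage 1 and 0 in every stage M library, and 400 the reverse. Of the genes called, 538 that fell were at 0 at stage M and 46 that rose were at 0 at stage 1. Stage M was the shallower group, and its leading genes left fewer counts for the rest. After thinning to the lowest total outside the 3 most abundant genes, 3099 genes were lost and 816 gained. Among better expressed genes, 284 with at least 100 counts at stage 1 had 0 at stage M, and 16 the reverse, or 132 and 37 after that thinning. The excess of genes at 0 at stage M was thus smaller after thinning and kept its direction. Thinning equalised only the total outside those 3 genes, and other abundant genes still took more of the stage M counts.

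The change was gradual at first and largest after stage 3. Levels at stages 2, 3 and 4 come from libraries outside the contrast, although the genes were chosen for stages 1 and M. Against stage 1, the genes that rose had median log2 differences of 0.24, 0.62, 1.29 and 1.61 at stages 2, 3, 4 and M, on the TMM scale. The genes that fell had medians of -0.19, -0.51, -1.53 and -2.10. The median of those that passed no test stayed within -0.23 and 0 at every stage, with quartiles of -0.71 and 0.32 at stage 4.

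Among the 3141 genes that rose with a mean log2 difference of at least 1, the middle of the span from stage 1 to stage M was reached by 6.65% as early as stage 2, by a further 29.6% and 49.8% at stages 3 and 4, and by 13.9% only at stage M. Among the 4973 that fell by as much, it was reached by 6.19%, 24.9%, 44.6% and 24.3%. The median gene had covered 39.7% of a rise and 24.99% of a fall by stage 3, and 83.6% and 79.8% by stage 4. Of the former 51.4% rose without a break from stage to stage, and of the latter 31.8% fell without one. The mean of a middle stage lay beyond that of stage M for 22.0% of the genes that rose and 25.7% of those that fell, and by more than 2-fold for 2.77% and 3.78%. Replicates differed more at stage 4 (median SD of log2 CPM 0.50) than in any other stage, and its totals were as low as 1517487, so single steps there are less certain.

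The 2 ends of leaf growth also miss genes that moved only in between. Of the 6403 genes that passed no test, 249 had a stage 2, 3 or 4 mean at least 4-fold above both ends. In 88 such a mean was at least 4-fold below both. Over all 16668 tested genes these numbers were 384 and 121. The values are means of 3 libraries picked as the most extreme of 3 stages, given without a test.

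**Figure D4:**
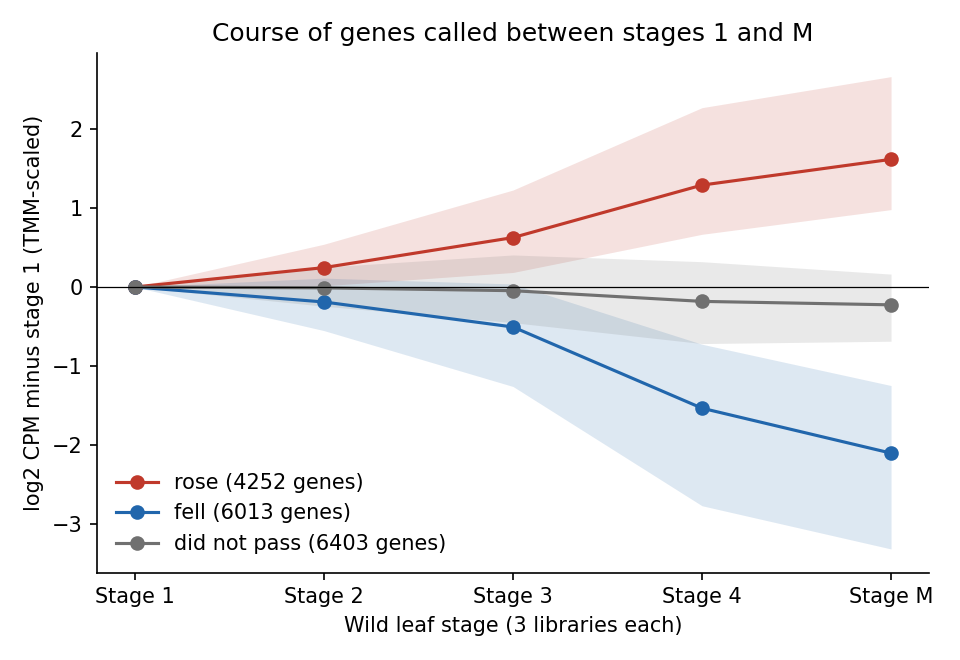
Lines give the median and bands the quartiles of the log2 CPM of a gene's stage mean minus its stage 1 mean (TMM-scaled, 3 libraries a stage), for genes that rose, fell or did not pass between stages 1 and M. The medians reach 1.61 and -2.10 at stage M, with the longest step between stages 3 and 4.

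To ask what kind of genes changed, lists were taken from the hydroponic plants. Leaf-preferring genes (2313) were at least 4-fold higher in the 3 mature leaves than in the 3 white roots at an adjusted p under 0.05, and root-preferring genes (3654) at least 4-fold higher in white roots (edgeR, tissue and log10 Pi as terms). In that contrast 9892 of 19418 genes (50.9%) passed, 22.7% as higher in leaf and 28.2% as higher in root. A shared total, 11508234, was found in the white root libraries at the lower 2 Pi supplies, but 90.9% of their values differed and both were kept. The leaves that set the list were mature, so leaf identity and leaf maturity cannot be told apart in it.

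Leaf-preferring genes rose and root-preferring genes fell from stage 1 to stage M, on each scale. The other scales shifted fold changes downward, so only the leaf-preferring rise could have been lost on them. Of 2170 leaf-preferring genes tested in the wild leaves, 1647 (75.9%) rose, 189 (8.71%) fell and 334 did not pass, with a median log2 fold change of 1.94. Over all tested genes 25.5% rose and 36.1% fell, with a median of -0.40. Of 2239 root-preferring genes tested, 99 (4.42%) rose, 1384 (61.8%) fell and 756 did not pass, with a median of -2.13. By total count the medians were 0.61 and -3.43, with 1089 rises and 449 falls among leaf-preferring genes and 42 and 1954 among root-preferring ones, where 10.4% of all tested genes rose and 70.6% fell. Only genes expressed in some wild leaf stage could be tested, which left out 1415 of the root-preferring list. Those tested owe their place to whichever stage was high, so part of the fall is built in.

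As a share of the library, leaf-preferring genes held 16.8%, 16.3% and 17.5% of the counts in stage 1 replicates 1, 2 and 3 and 68.1%, 68.0% and 59.0% in those of stage M. All 3 of the most abundant genes were on that list. Outside them, the share still went from 16.03 ± 0.466% at stage 1 to 47.8 ± 2.18% at stage M (SD, n = 3), and had stood at 45.7 ± 3.96% by stage 4. The share of root-preferring genes went from 9.90%, 10.0% and 9.55% at stage 1 to 2.58%, 2.35% and 2.98% at stage M. With the 3 most abundant genes left out of the total, that share was 9.93 ± 0.235% at stage 1, 3.74 ± 0.256% by stage 4 and 3.95 ± 0.153% in stage M (SD, n = 3), so it was no lower at stage M than at stage 4. Neither list's shares overlapped between the stages. In bulk leaf tissue, a change in the proportion of cell types and a change of expression within cells cannot be told apart.

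**Figure D5:**
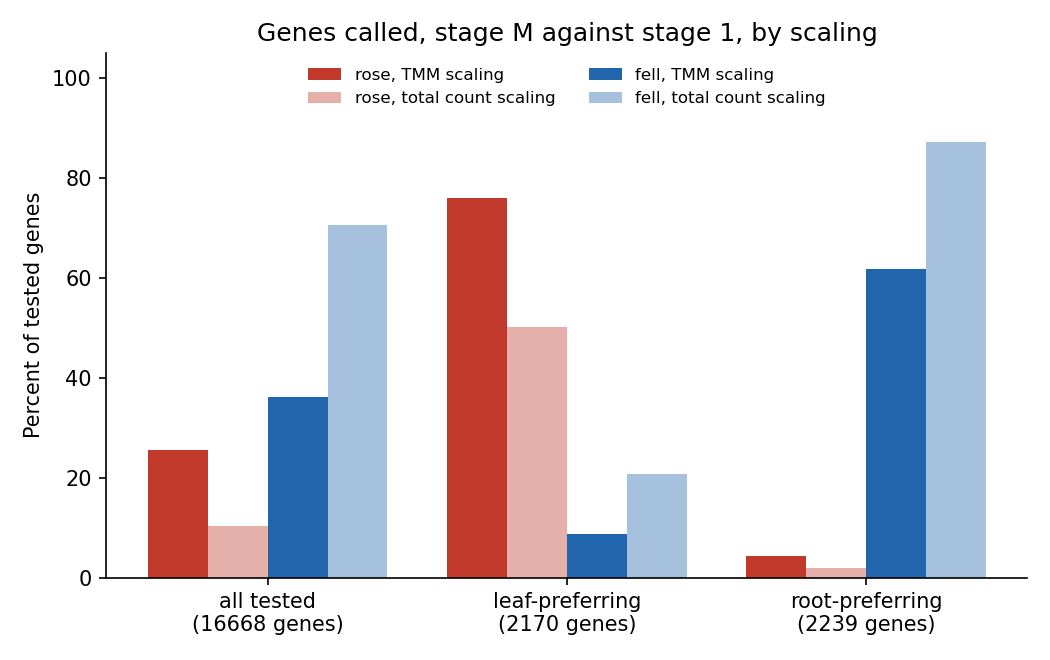
Bars give the percent of tested genes that rose or fell from stage 1 to stage M (edgeR, adjusted p under 0.05) among all tested genes, leaf-preferring genes and root-preferring genes, under TMM scaling (dark) and scaling by total count alone (pale). Leaf-preferring genes rose more often than they fell, and root-preferring genes fell more often than they rose, under both scalings.

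Read from the other side, the genes called in the wild leaves were looked up in the hydroponic contrast of mature leaf against white root. Of the 4190 rises tested there, 63.5% passed as higher in leaf and 6.18% in root, at any fold (edgeR, adjusted p under 0.05). For the 5819 falls tested there these shares were 8.76% and 41.8%, and for all 16148 genes tested in both contrasts 26.4% and 25.1%. Of the 1734 genes that rose on each scale, 1687 were tested there. Of these, 80.4% passed as higher in mature leaf and 3.56% in root. There were exceptions, at shares below those of all tested genes. Of the leaf-preferring genes 189 fell (8.71%, against 36.1%), 123 of them at least 4-fold, and of the root-preferring genes 99 rose (4.42%, against 25.5%), 51 of them at least 4-fold.

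Genes that fell in the leaf were also compared between young and old cluster roots. Between the day 0 and day 12 cluster root libraries, among genes with at least 100 counts in either, 33.9% of the 4631 that fell in the leaf were at least 4-fold lower on day 12 and 3.48% at least 4-fold higher. For all 11974 tested genes with such counts the shares were 17.2% and 7.64%. Of the 3163 that rose in the leaf, 4.68% were at least 4-fold lower and 14.6% at least 4-fold higher. Each day was a single library, so these are sizes with no test.

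The genes were also read against phosphate supply in hydroponic mature leaves. From the library at 1 uM to that at 50 uM Pi, 19.6% of the 4048 genes that rose in the field leaf were at least 2-fold lower and 9.49% at least 2-fold higher. For the 3890 genes that fell in the field leaf the shares were 7.58% and 17.7%, and for all 12240 tested genes with at least 100 counts in either library 12.5% and 13.4%. In white roots the shares for the genes that rose were 6.67% lower and 3.63% higher, against 6.37% and 3.26% for all tested genes. With 1 library a supply, these too are descriptions.

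Adding isoforms together hid few opposite changes that passed per transcript, but also some changes of a transcript in genes that did not pass. Per transcript, 13827 of 31067 (44.5%) passed the same test, with 5456 higher and 8371 lower at stage M. Of these, 12386 belonged to a gene that passed in the same direction, 1084 to one that did not pass and 357 to one that went the other way. Since the summed gene contains the transcript, the match is in part a matter of construction. Among 7477 genes with several tested transcripts, 448 (5.99%) held transcripts passing in both directions. Their summed counts rose in 244, fell in 54 and did not pass in 150, and in 212 the leading transcript at stage M was not the leading one at stage 1. Of 2385 genes with several tested transcripts that did not pass as a sum, 700 held a transcript that passed. Isoforms share reads, so the division of counts between them is an estimate.

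Genes assembled into a common Trinity component were compared with each other. Of 690 pairs of such genes with both members called, 475 (68.8%) changed in the same direction and 215 in opposite ones. Over all pairs of called genes, 51.5% had the same direction. Members of a component share sequence, so divided reads can tie their counts together, and their part in this was not tested.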

How the data were processed

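Total RNA was sequenced with a stranded kit after removal of plant ribosomal RNA, per the labels' protocols. The authors deposited estimated counts per assembled transcript, of which 31.5 to 51.9% in the 6 libraries were not whole. Of tools, the submitters' processing notes list kallisto, Trim Galore 0.6.6 and DESeq2 1.30.1 without their roles. How the assembly, strand and filters were handled before deposit is not given in the sources used here.

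Estimated counts were summed per Trinity gene (the ID without its isoform part) and rounded. edgeR 4.0.16 (R 4.3.3) gave the low count filter (filterByExpr by stage, at least 10 counts, and 15 in total), the TMM factors and a robust quasi-likelihood fit of stage over all 15 wild leaf libraries, with 10 residual degrees of freedom. P-values were adjusted over all tested genes, with 0.05 as the threshold. Log2 CPM used a prior count of 2. A fold against a stage at 0 is a bound against 3 counts over its libraries. Named genes are the 2 in each direction with the largest log2 fold change under the limits given with them. The comparison, lists and rules were chosen with earlier results of these data known.

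Deviations from the stage mean were correlated between stage 1 and stage M libraries. In the 3 pairs with the same replicate number r was 0.159 to 0.201, and in the other pairs at most -0.0308. Deviations from a stage mean cancel out within the stage, which lowers the values of the other pairs. The numbers were read as pairing the libraries. The fit reported has no block for them, and the fit with the block was run as an alternative. Alternatives were the replicate block, DESeq2 1.42.0, other scalings and filters, a fit of the 6 libraries alone, a test against a 1.5-fold change, thinning and leaving out each library. Scaling by total count and thinning to the total outside the leading genes were added after seeing the data. The test was also run on simulated counts, where 200 genes were changed by 2-fold or 4-fold, up and down alike. That setting had no broad shift like the one between stages 1 and M, so it does not bear on the choice of scaling.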

Additional observations from a re-analysis of the deposited data

How the results depend on the processing

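With the replicate number as a block, 11036 genes passed, 4245 of the 4252 rises and 5982 of the 6013 falls were called in the same direction and 0 reversed. The block changed no call of a named gene. Counts of genes passing ran from 8007 (test against a 1.5-fold change) to 11036 over the 15 alternatives that kept a scaling factor, with rises from 3298 to 4553 and falls from 4709 to 6483. Leaving out 1 library at a time gave 9405 to 9810. DESeq2 called 4242 of the rises and 5904 of the falls in the same direction. Scaling by total count alone, chosen after the data had been seen, gave 1734 rises and 11770 falls, and 1089 rises among leaf-preferring genes. Leaving the 3 most abundant genes out of the total gave 2550 and 9585. Lists cut at 16-fold, smaller by construction, held 738 rises among 917 tested leaf-preferring genes and 523 falls among 847 tested root-preferring genes. Lists by size alone held 1150 rises among 1397 and 784 falls among 1214. Over all tested genes 25.5% rose and 36.1% fell. Over all tested genes the median log2 fold change ran from -0.60 (no filter) to -0.23 (stages 1 and M alone) over the 15 alternatives with a scaling factor, and was -1.72 by total count alone and -1.15 without the 3 most abundant genes in the total. All 4 named genes kept direction and call under the 17 alternatives run, with adjusted p at most 7.87e-05. Depth limits calls at stage M, where 3 counts over its libraries stand for 0.512 CPM against 0.118 at stage 1.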
